A study of Mus musculus with 31 samples.

Results

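Lung miRNAs were compared between female BALB/c mice, an inbred strain, exposed to cigarette smoke for 6 weeks and female BALB/c mice kept in room air for the same time. The comparison was defined by the sample titles alone and takes in 8 arrays, 4 of smoke and 4 of control, out of 31 arrays in the series. The other 23 arrays cover 4, 8 and 12 weeks of the same exposures in the same strain and sex, with room-air arrays at each duration. Total RNA of excised lung was extracted with TRIzol, given a Cy3 label at the 3′ end and measured on Agilent 1-colour miRNA arrays, which carry 611 mouse miRNAs among 650 entries, the rest being viral. The sources used here give neither the age of the mice nor the dose of smoke. They also do not say whether the arrays of a group came from separate animals, so p-values reflect the spread among these arrays alone, and that spread may be technical. Of the 611 mouse miRNAs, 218 were detected on all 8 arrays, 63 on some of them and 330 on none. The 342 that were not detected in enough arrays of any group were not tested, which left 269 mouse and 3 viral miRNAs, and no viral miRNA passed the test.

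A miRNA is an RNA of about the length of the sequences printed here that guides an Argonaute protein to messenger RNAs and lowers their output. Target choice rests mostly on the seed, bases 2 to 8 from the 5′ end, so miRNAs with the same seed can share targets. A hairpin precursor can give a 5p and a 3p mature miRNA, and neighbouring hairpins are often transcribed together. In lung, several miRNAs are induced by NF-kB and cytokine signalling in epithelium and macrophages, among them the miR-146 pair, miR-21 and miR-132, while the miR-200 and miR-183 families mark epithelium and miR-449 marks multiciliated cells.

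The mature sequences of the miRNAs on which the results turn are given here 5′ to 3′ from RefSeq (GRCm38.p6), with the seed in capitals. Of the 269 tested mouse miRNAs 212 matched an entry, and 20 of the 22 that passed did. miR-135b-5p and miR-185-5p are named only. The first pair shares its seed and both members rose.
miR-146a-5p: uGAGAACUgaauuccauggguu
miR-146b-5p: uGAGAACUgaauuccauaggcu
The next set shares a seed among tested and matched miRNAs, and miR-34a-5p and miR-449a-5p rose while miR-34b-5p did not pass.
miR-34a-5p: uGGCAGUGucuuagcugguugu
miR-449a-5p: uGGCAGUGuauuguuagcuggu
miR-34b-5p: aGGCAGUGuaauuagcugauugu
miR-132-3p rose and its neighbour with the same seed, miR-212-3p, did not pass.
miR-132-3p: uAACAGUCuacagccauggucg
miR-212-3p: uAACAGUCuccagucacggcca
miR-21-5p and both arms of miR-31 rose, each with a seed that no other tested and matched miRNA has.
miR-21-5p: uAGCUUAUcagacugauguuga
miR-31-5p: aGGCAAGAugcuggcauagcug
miR-31-3p: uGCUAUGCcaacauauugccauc
In the epithelial miR-200 family miR-429-3p rose, and miR-200b-3p, with the same seed, did not pass.
miR-429-3p: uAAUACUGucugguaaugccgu
miR-200b-3p: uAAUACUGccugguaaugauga
The star arm let-7a-1-3p was the 1 miRNA that fell. let-7i-5p was the 1 of 9 tested miRNAs with the let-7 seed that rose, where 7.72% of all miRNAs rose.
let-7a-1-3p: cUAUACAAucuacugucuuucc
let-7i-5p: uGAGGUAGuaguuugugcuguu

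The 8 arrays lie on 4 slides, each with 1 smoke and 1 control array of 6 weeks. Smoke arrays always lie in the first row of positions and controls in the second, so position and smoke cannot be told apart. Over the series each duration lies in its own column of positions, so position and duration cannot be told apart either. Between 439 and 562 probes were detected per array, and the 75th percentile of signal before scaling ran from 1018 to 3725 in controls and from 1616 to 2278 in smoke. The control arrays stood apart as pairs. On the first principal component of log2 signal, which held 47.5% of the variance, controls 1 and 2 scored -2.24 and -3.23 and controls 3 and 4 scored 3.63 and 3.90, whereas the smoke arrays scored 0.70 to 0.91. The variance of probe differences between controls of different pairs was 219 to 411 times the spot noise, against 28.7 within the first pair and 9.12 within the second. Smoke arrays 1, 3 and 4 were close to each other, at 2.11 to 4.12 times the spot noise, and smoke array 2 was 34.5 to 48.5 times it from them. No pair was at or below the spot noise, and all 8 arrays were counted. Repeat arrays of the same RNA can also exceed spot noise, so whether the close arrays are separate samples was not settled by this comparison, and counts with them averaged are given below. Markers of cell types found in lung were present on all 8 arrays. Endothelial miR-126-3p lay at 4.82 to 5.13 (log2 scaled signal) and smooth muscle miR-143-3p at 0.68 to 0.97. Epithelial miR-200b-3p lay at 1.05 to 1.53 and leukocyte miR-142-3p at 1.76 to 2.77. These markers show cell types and do not by themselves tell lung from other tissue.

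**Figure D1:**
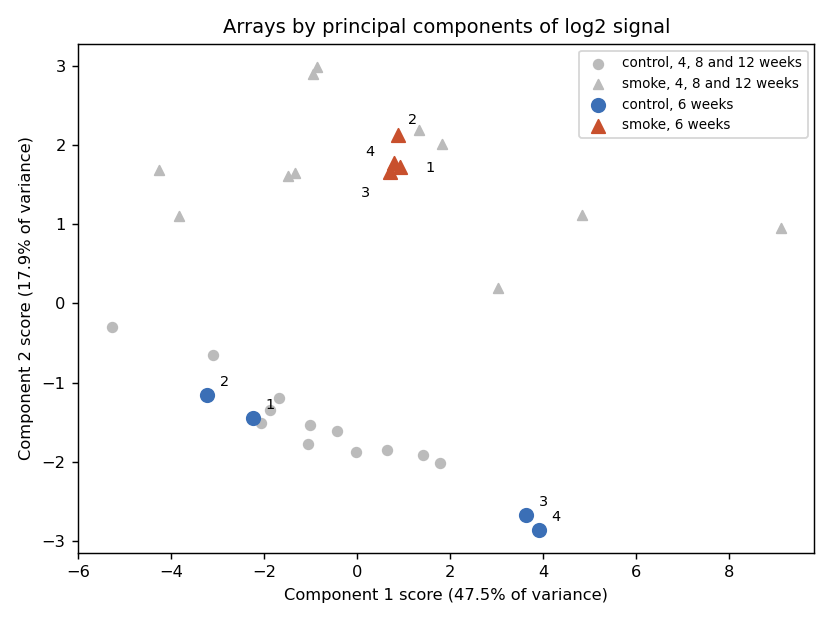
Scores of the 31 arrays on the first and second principal components of log2 scaled signal over 207 miRNAs detected on every array, with 6-week arrays numbered and the arrays of other durations in grey. Controls 3 and 4 lie at 3.63 and 3.90 on component 1 and controls 1 and 2 at -2.24 and -3.23, with the 4 smoke arrays between them and above them on component 2.

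After 6 weeks of smoke 21 miRNAs rose and 1 fell, of 272 tested. These are 8.09% of the miRNAs tested, 7.72% higher and 0.368% lower (limma, Benjamini-Hochberg adjusted p of 0.05 or less), and 53 miRNAs had an unadjusted p under 0.05. The 3 largest rises were in miR-135b-5p, miR-146b-5p and miR-21-5p, and the other 18 were under 1 log2. The median difference of all 272 miRNAs was 0.01 log2, and 142 of them were positive. Smoke and control arrays did not overlap for 20 of the 21 rises, miR-29a-3p being the exception, nor for the fall. Over all tested miRNAs, 43 (15.8%) had every smoke array above every control and 9 (3.31%) every smoke array below. The miRNAs that passed had a median GC content of 42.2%, against 45.5% for all matched miRNAs.

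**Figure D2:**
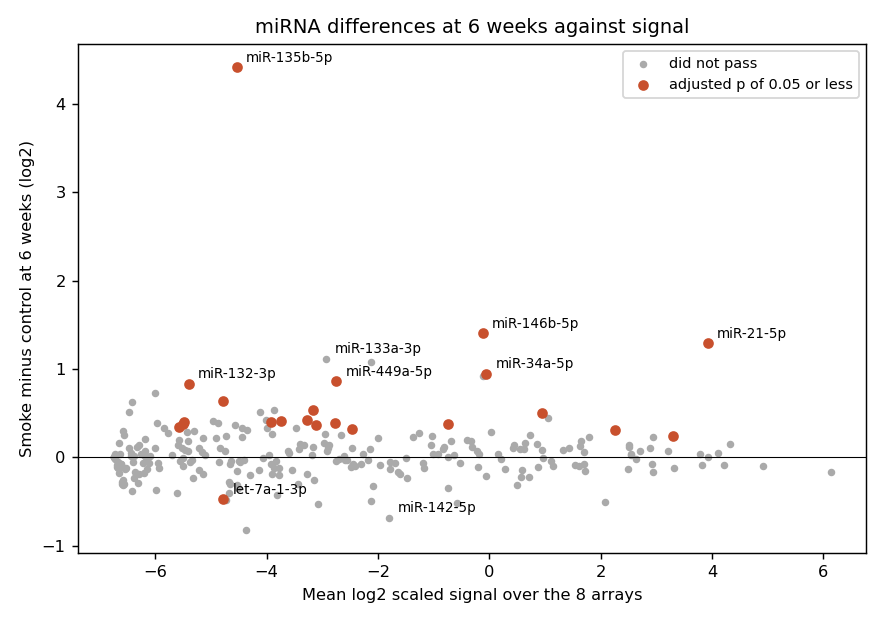
Smoke minus control difference (log2) of each of the 272 tested miRNAs against its mean log2 scaled signal over the 8 arrays of 6 weeks; the 22 that passed are in orange. miR-135b-5p lies highest at 4.41, and let-7a-1-3p, at -0.47, is the only miRNA that passed below 0.

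The control pairs bear on which calls hold. Without controls 1 and 2 there were 52 calls (29 higher, 23 lower), and without controls 3 and 4 there were 18 (17 higher, 1 lower). Of the 22 calls 11 passed both ways: miR-7a-5p, miR-21-5p, both arms of miR-31, miR-34a-5p, miR-132-3p, miR-135b-5p, miR-141-5p, miR-146b-5p, miR-429-3p and miR-674-5p. With smoke arrays 1, 3 and 4, controls 1 and 2, and controls 3 and 4 each averaged to 1 sample, 10 calls were left. Leaving out smoke array 4 left 14 calls, and leaving out any single array of the 8 gave 14 to 25.

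Of the 9 tested miRNAs listed as induced by innate immune or cytokine signalling 7 rose and none fell. Their median difference was 0.54 log2, against 0.01 for all miRNAs, and 7.72% of all miRNAs rose. The members that rose were miR-21-5p, both arms of miR-31, miR-132-3p, miR-135b-5p, miR-146a-5p and miR-146b-5p. The list was drawn up with earlier results of these data known.

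miR-135b-5p is known to be induced in mouse lung through the receptor for interleukin-1. Its log2 scaled signal was -2.33, -2.34, -2.36 and -2.27 on smoke arrays 1 to 4, and all 4 controls lay at the floor of -6.74. Every smoke array was far above every control, and it was above background on 1 of 4 control arrays. The difference from the floor was 4.41 ± 0.15 log2 (SE, n = 4 and 4, adjusted p 1.56e-18). The controls have no spread at the floor, so this SE rests on the spread of groups above the floor. The floored arrays still count in the residual degrees of freedom, which lowers the SE and the p. Before the floor was set the controls lay between -7.98 and -7.52, and with the floor 4 times higher the difference was 2.41. Its 2 probes gave 4.16 and 4.41.

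miR-146b-5p, an NF-kB-induced brake on Toll-like receptor signalling, lay at -0.78, -0.80, -0.88 and -0.82 on the controls and at 0.54, 0.67, 0.54 and 0.58 on the smoke arrays. The controls lay within a narrow band and all smoke arrays were above it. It rose by 1.41 ± 0.08 log2 (2.65-fold, adjusted p 7.41e-14) and passed under every alternative setting tried. So did miR-135b-5p, except that the filter for detection on every array left miR-135b-5p untested. miR-146a-5p, the paralog with the same seed, lay at 0.65, 0.65, 0.70 and 0.80 on the controls and at 1.20, 1.28, 1.14 and 1.18 on the smoke arrays. The groups did not overlap. It rose by 0.50 ± 0.15 log2 (1.41-fold, adjusted p 0.0314), less than miR-146b-5p by value; this difference between the paralogs was not tested. The call for miR-146a-5p ended on leaving out any of 7 of the 8 arrays, all but smoke array 3, with values of 0.47 to 0.53 log2.

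miR-21-5p, which rises in many inflamed and fibrotic tissues, lay at 3.29, 3.26, 3.29 and 3.27 on the controls and at 4.59, 4.39, 4.64 and 4.68 on the smoke arrays. The controls were nearly identical, and smoke array 2 was the lowest of its group. It rose by 1.29 ± 0.09 log2 (2.45-fold, adjusted p 1.25e-11). miR-132-3p, a target of the transcription factor CREB, lay at -5.96, -6.06, -5.52 and -5.74 on the controls and at -5.02, -4.76, -5.06 and -5.10 on the smoke arrays. It rose by 0.83 ± 0.17 log2 (1.78-fold, adjusted p 0.00124). With the floor 4 times higher it lies at that floor on all 8 arrays, as do miR-141-5p, miR-31-3p and miR-674-5p, and these calls then end.

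Both arms of miR-31, a miRNA of epithelial cells that rises in inflamed mucosa, passed. miR-31-5p lay at -3.42, -3.41, -3.43 and -3.47 on the controls and at -2.996, -2.68, -2.97 and -2.92 on the smoke arrays, a rise of 0.54 ± 0.09 log2 (1.46-fold, adjusted p 0.000155). miR-31-3p rose by 0.37 ± 0.06 log2 (adjusted p 0.000183), with controls between -5.75 and -5.61 and smoke arrays between -5.39 and -5.16. Neither arm overlapped between groups. miR-155-5p, a miRNA of activated macrophages and lymphocytes, did not pass (0.53 ± 0.21 log2, adjusted p 0.124): controls 1 and 2 lay at -4.40 and -4.48, controls 3 and 4 at -3.84 and -3.80, and the smoke arrays at -3.66 to -3.53. miR-212-3p, whose hairpin lies 204 bases from that of miR-132 on chromosome 11, had a difference of 0.10 ± 0.23 log2 (adjusted p 0.88), with controls from -5.83 to -4.82 on both sides of the smoke arrays.

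**Figure D3:**
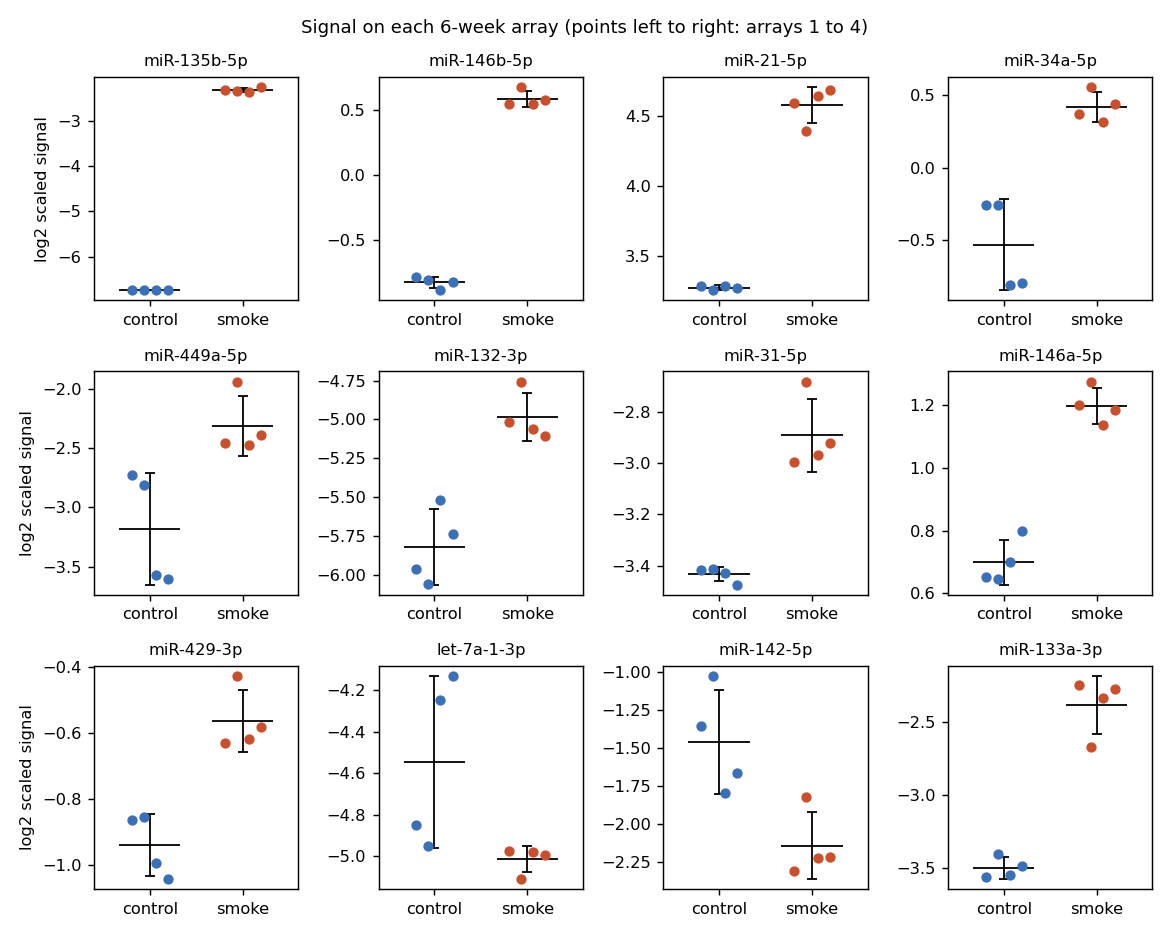
Log2 scaled signal of 12 miRNAs on each 6-week array, with the points of a group in order of array number; black lines are the group mean and bars are 1 SD (n = 4). miR-135b-5p, miR-146b-5p and miR-21-5p have tight controls well below the smoke arrays, while the controls of miR-34a-5p, miR-449a-5p and let-7a-1-3p split into arrays 1 and 2 against arrays 3 and 4.

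Of 14 tested epithelial miRNAs 3 rose and none fell, where 7.72% of all miRNAs rose, and the list median was 0.22 log2. The hairpin of miR-141 holds miR-141-5p, which lay at -5.72 to -5.66 on controls and -5.48 to -5.18 on smoke arrays and rose by 0.40 ± 0.08 log2 (1.32-fold, adjusted p 0.000615). Its other arm, miR-141-3p, spread from -1.44 to 0.00 over the controls, around the smoke arrays at -0.66 to -0.46, and did not pass (adjusted p 0.857). miR-429-3p lay at -0.86, -0.85, -0.99 and -1.04 on controls and at -0.63, -0.43, -0.62 and -0.58 on smoke arrays, a rise of 0.37 ± 0.07 log2 (1.30-fold, adjusted p 0.000613). The groups did not overlap for either miR-141-5p or miR-429-3p. miR-183-5p, of the miR-183, miR-96 and miR-182 cluster of sensory and airway epithelium, rose by 0.40 ± 0.11 log2 (adjusted p 0.0208), and its call ended without controls 1 or 2 or smoke array 4 (0.35, 0.33 and 0.38 log2). Its cluster neighbours did not pass: miR-182-5p had 0.38 ± 0.13 log2 (adjusted p 0.062) and miR-96-5p 0.26 ± 0.16 log2. The summed level of the epithelial list was 2.79 to 2.89 log2 on controls and 2.96 to 3.03 on smoke arrays, without overlap. Signals were summed before the log, so the bright miR-200b-3p, miR-200a-3p and miR-200c-3p weigh most in it. None of these passed, and each overlapped between groups. In whole lung, more cells of a type and more RNA per cell cannot be told apart.

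miR-449a-5p, of the cluster that promotes multiciliated cell differentiation, was the 1 of 5 tested multiciliated miRNAs that rose, against 7.72% of all miRNAs. It lay at -2.73 and -2.81 on controls 1 and 2, at -3.57 and -3.60 on controls 3 and 4, and at -2.46, -1.94, -2.47 and -2.39 on the smoke arrays. The smoke arrays were above all controls but nearer to the first pair. The rise was 0.86 ± 0.18 log2 (1.82-fold, adjusted p 0.0019); without controls 3 and 4 it was 0.46 and did not pass. miR-34c-5p (0.18 ± 0.18 log2) and miR-34b-5p (0.29 ± 0.27 log2), which share the multiciliated list, did not pass. Of 7 tested miRNAs listed as p53 targets 1 rose, against 7.72% of all miRNAs: miR-34a-5p, a miRNA of DNA damage and senescence. It lay at -0.25, -0.26, -0.81 and -0.79 on controls and at 0.37, 0.55, 0.31 and 0.44 on smoke arrays, without overlap. Its rise was 0.95 ± 0.15 log2 (1.93-fold, adjusted p 8.59e-05), and 0.67 without controls 3 and 4, where it still passed.

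Most other rises were smaller than 0.5 log2. miR-672-5p lay at -5.39 to -4.75 on controls and -4.59 to -4.39 on smoke arrays and rose by 0.64 ± 0.18 log2 (1.56-fold, adjusted p 0.0254). miR-7a-5p, a miRNA of neurons and endocrine cells, rose by 0.41 ± 0.10 log2 (adjusted p 0.00719), from controls between -3.96 and -3.94 to smoke arrays between -3.63 and -3.46. Of the other neural markers, miR-124-3p and miR-9-3p were detected on none of the 8 arrays and miR-9-5p on 1. miR-326-3p (0.42 ± 0.12 log2), miR-185-5p (0.39 ± 0.08), miR-500-3p (0.37 ± 0.09) and miR-674-5p (0.34 ± 0.07) rose without overlap between groups. miR-218-5p (0.32 ± 0.10 log2, adjusted p 0.0451), which was named after its values were seen as were miR-182-5p, miR-212-3p, miR-155-5p and the leukocyte miRNAs below, let-7i-5p (0.31 ± 0.09 log2, adjusted p 0.0195) and miR-29a-3p (0.24 ± 0.08 log2, adjusted p 0.049) were closest to the threshold or smallest in size. miR-29a-3p overlapped between groups, with controls 1 and 2 at 3.31 and 3.34 and smoke arrays 1, 3 and 4 at 3.33 to 3.38.

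Among these rises 6 depended on single arrays. miR-672-5p no longer passed without control 1 (0.55 log2), control 2 (0.56), smoke 1 (0.62) or smoke 4 (0.62). miR-326-3p no longer passed without control 3 (0.33), control 4 (0.37), smoke 1 (0.40) or smoke 4 (0.42), and miR-500-3p without control 3 (0.32) or control 4 (0.31). Without control 3, control 4, smoke 2 or smoke 4 in turn, miR-218-5p had 0.25, 0.27, 0.23 and 0.34 log2, let-7i-5p 0.27, 0.26, 0.28 and 0.31, and miR-29a-3p 0.20, 0.19, 0.16 and 0.26, and none of them passed. The rises of miR-185-5p, miR-7a-5p and miR-674-5p passed whichever single array was left out.

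let-7a-1-3p, the passenger arm of a let-7a hairpin on chromosome 13, was the only miRNA that fell. It lay at -4.85, -4.95, -4.25 and -4.13 on the controls and at -4.97, -5.11, -4.98 and -5.00 on the smoke arrays. Smoke arrays lay just below controls 1 and 2 and well below controls 3 and 4. The fall was -0.47 ± 0.13 log2 (1.39-fold, adjusted p 0.0239), and of its 4 probes 1 was detected often enough to be compared. Without controls 3 and 4 the difference was -0.12, and the call also ended without control 3 (-0.37), control 4 (-0.33), smoke 2 (-0.44) or smoke 4 (-0.48). The guide arm let-7a-5p had 0.05 ± 0.16 log2 (adjusted p 0.925), and let-7b-3p and let-7f-1-3p, which share the passenger seed, had -0.25 ± 0.20 and -0.29 ± 0.18 log2 and did not pass.

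Most other members of the same hairpin cluster or seed family did not pass. miR-31 was the only precursor with both arms among the 22 miRNAs. miR-429-3p passed, while miR-200a-3p (0.26 ± 0.13 log2, adjusted p 0.31) and miR-200b-3p (0.08 ± 0.15), whose hairpins lie 909 and 1694 bases away on chromosome 4, did not. miR-141-5p passed and miR-200c-3p, with a hairpin 337 bases away on chromosome 6, had 0.16 ± 0.17 log2. Of 5 tested members of the miR-29 family, repressors of collagen and other matrix genes, only miR-29a-3p passed; miR-29b-3p had -0.16 ± 0.38 and miR-29c-3p 0.18 ± 0.15 log2. No member passed of the 8 tested in the miR-30 list (median -0.10 log2), the 11 of the miR-17 clusters (0.10), the 7 of the miR-23, miR-24 and miR-27 clusters (-0.09), the 8 of miR-15 and miR-16 (-0.04) or the 5 of miR-181 (-0.07). Nor did any of the 7 from the Sfmbt2 intron cluster (-0.23) or the 5 of the imprinted Dlk1-Dio3 region (0.08). Of all tested miRNAs 8.09% passed, so few or no calls in lists this short, miR-29 included, do not show that a family was unaffected. Hypoxia-induced miR-210-3p had -0.12 ± 0.12 log2.

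Of 8 tested leukocyte miRNAs 1 rose, miR-146a-5p, a share near the 7.72% of all miRNAs, and the list median was 0.24 log2. miR-223-3p, a defining miRNA of neutrophils and monocytes, lay at 0.47 and 0.42 on controls 1 and 2, at 1.18 and 1.24 on controls 3 and 4, and at 1.28, 1.29, 1.21 and 1.28 on the smoke arrays. The smoke arrays thus overlapped with controls 3 and 4 and lay well above controls 1 and 2, and it did not pass (0.44 ± 0.28 log2, adjusted p 0.404). miR-142-5p, which marks haematopoietic cells in general, lay at -1.36, -1.03, -1.80 and -1.66 on controls and at -2.31, -1.82, -2.23 and -2.22 on smoke arrays. All smoke arrays were lower, smoke array 2 only just, the difference being -0.68 ± 0.25 log2 (adjusted p 0.101). Its other arm, miR-142-3p, was also lower on every smoke array (-0.50 ± 0.34 log2, adjusted p 0.466). The summed leukocyte level was 3.20 to 3.44 log2 on controls and 3.20 to 3.28 on smoke arrays. Signals were summed before the log, so miR-142-3p, the brightest of the list and lower on every smoke array, weighs most in it. The part of the leukocyte level in the rises above was not tested.

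Other cell types gave no call. Of 9 smooth muscle and mesenchymal miRNAs none passed (median 0.04 log2), where 8.09% of all miRNAs did. miR-199a-5p had 0.24 ± 0.08 log2 (adjusted p 0.066), miR-199a-3p 0.23 ± 0.08 and miR-143-3p 0.15 ± 0.08. miR-199b-5p went the other way, lower on every smoke array (-0.22 ± 0.14 log2, adjusted p 0.403), and miR-10b-5p and miR-214-3p had -0.09 ± 0.15 and -0.06 ± 0.18 log2. Endothelial miR-126-3p and miR-126-5p had -0.10 ± 0.07 and -0.11 ± 0.08 log2. Red cell miR-144-3p lay at 0.23 and 0.84 on controls 1 and 2, at -1.26 and -1.09 on controls 3 and 4, and at -0.93 to -0.63 on smoke arrays, so that it split the controls in the way the first principal component did. Red cell miR-451 split the control pairs in the opposite direction, at 6.04 and 5.93 on controls 1 and 2 and at 6.35 and 6.52 on controls 3 and 4. Its difference was -0.17 ± 0.10 log2. Liver miR-122-5p lay at the floor on all 8 arrays.

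Among miRNAs that did not pass, the 3 largest differences were in miRNAs of striated muscle. None of 5 tested members of that list passed, where 8.09% of all miRNAs did, and the list median was 0.93 log2. miR-133a-3p lay at -3.56, -3.40, -3.55 and -3.49 on the controls and at -2.25, -2.68, -2.34 and -2.28 on the smoke arrays. miR-133b-3p lay between -2.72 and -2.54 on controls and between -1.94 and -1.43 on smoke arrays, and miR-1a-3p between -0.73 and -0.45 and between 0.06 and 0.49. In all 3 the groups did not overlap and smoke array 2 was the lowest smoke array. The differences were 1.12 ± 0.36, 1.08 ± 0.37 and 0.93 ± 0.37 log2 (adjusted p 0.0533, 0.073 and 0.124), where the SE draws on the spread of all 31 arrays. In a fit of the 8 arrays of 6 weeks alone they were 1.12 ± 0.10, 1.08 ± 0.12 and 0.93 ± 0.11 log2 and passed (adjusted p 0.000547, 0.00142 and 0.00205). At 4 weeks the same miRNAs had differences of -0.93 ± 0.36, -0.98 ± 0.37 and -0.84 ± 0.37 log2, of which the falls of miR-133a-3p and miR-133b-3p passed (adjusted p 0.0458, 0.0423 and 0.0705). Without 4-week smoke arrays 2 and 3, which scored 9.12 and 4.84 on the first component, they were -0.89 ± 0.46, -0.95 ± 0.47 and -0.84 ± 0.47 log2 and none passed. The difference of the 6-week from the 4-week effect was 2.05 ± 0.51 for miR-133a-3p (adjusted p 0.0805). The skeletal and heart muscle markers miR-206-3p, miR-208a-3p and miR-499-5p were detected on none of the 8 arrays, and miR-208b-3p had 0.28 ± 0.25 log2. The summed striated muscle level was -0.15 to 0.05 log2 on controls and 0.60 to 1.04 on smoke arrays, and the bright miR-1a-3p weighs most in it.

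The fit of the 8 arrays alone gave 19 calls (6.99%), all higher, of which 13 are among the 22. Besides the muscle miRNAs it added miR-205-5p (0.51 ± 0.03 log2, adjusted p 5.8e-05), a miRNA of basal cells in stratified and airway epithelium that lay at the floor on controls 1, 2 and 4 and at -6.73 on control 3, miR-192-5p (0.33 ± 0.04, adjusted p 0.00277) and miR-764-5p (adjusted p 0.0107). miR-764-5p was above background on none of the 4 controls, which all lie at the floor, so the size of its difference and its p are set by the floor. The controls of miR-205-5p lie at or next to the floor, so the size, SE and p of its difference also depend on the floor. With all 31 arrays none of these 3 passed (adjusted p 0.614, 0.403 and 0.156). Lost were let-7a-1-3p, let-7i-5p, miR-183-5p, miR-218-5p, miR-29a-3p, miR-326-3p, miR-449a-5p, miR-500-3p and miR-672-5p.

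Within slides, where 1 smoke and 1 control array can be compared, all 21 rises were positive on all 4 slides and the fall was negative on all 4. For the fall and the 20 rises without overlap between groups, any pairing of arrays gives these signs. The signs are therefore no separate support, and only the sizes add to the comparison above. Of all 272 miRNAs, 72 had the same sign on every slide. miR-146b-5p differed by 1.32, 1.48, 1.43 and 1.39 log2 on slides 1 to 4, and miR-21-5p by 1.29, 1.13, 1.35 and 1.41. miR-34a-5p differed by 0.62 and 0.81 on slides 1 and 2 and by 1.12 and 1.23 on slides 3 and 4, and miR-132-3p in the opposite order, by 0.95 and 1.30 and by 0.46 and 0.64. The smallest values among the rises were on slide 1, with 0.01 for miR-29a-3p and 0.03 for miR-218-5p.

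**Figure D4:**
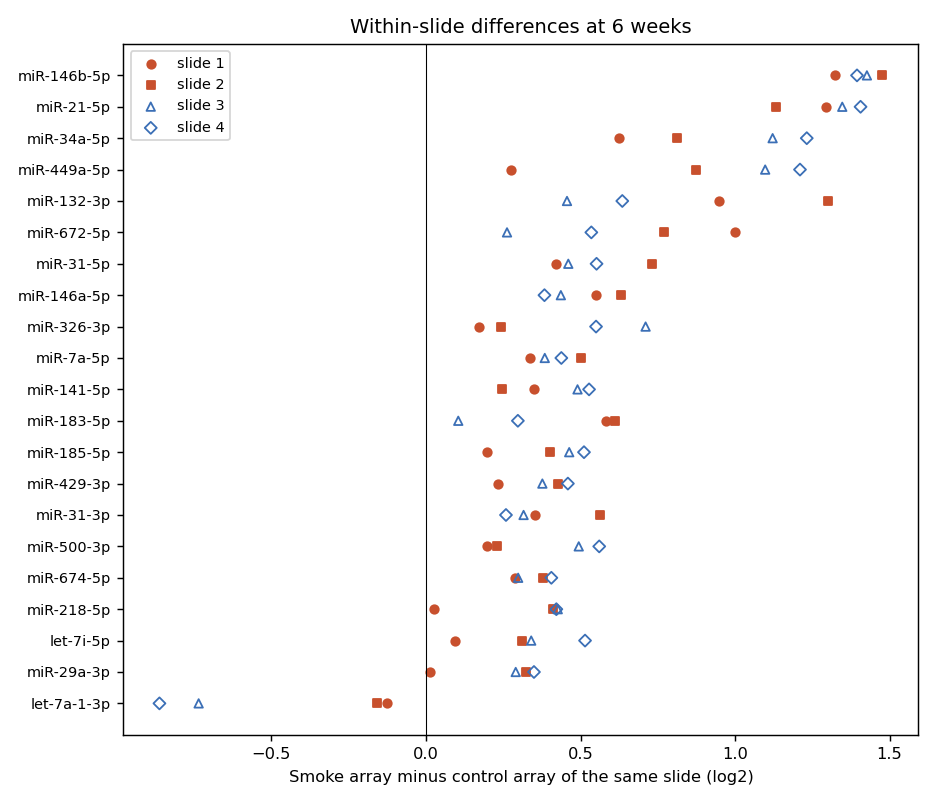
Log2 signal of the smoke array minus that of the control array on the same slide, for the miRNAs that passed at 6 weeks except miR-135b-5p (4.38 to 4.47, off this scale). Slides 1 and 2 (filled orange) hold controls 1 and 2, and slides 3 and 4 (open blue) hold controls 3 and 4; the 2 sets separate for miR-34a-5p, miR-132-3p and let-7a-1-3p and mix for miR-7a-5p.

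At the other durations, each with its own controls, 104 miRNAs passed at 4 weeks (38.2%), 29 at 8 weeks (10.7%) and 25 at 12 weeks (9.19%). Of the 22 calls at 6 weeks, 14 also passed at 4 weeks (63.6% of the 6-week and 13.5% of the 4-week calls), 4 at 8 weeks (18.2% and 13.8%) and 11 at 12 weeks (50.0% and 44.0%). Without 4-week smoke arrays 2 and 3, 16 miRNAs passed at 4 weeks, of which 10 are among the 6-week calls. At all 4 durations miR-21-5p, miR-132-3p, miR-135b-5p and miR-146b-5p passed. let-7a-1-3p, let-7i-5p, miR-218-5p, miR-29a-3p, miR-326-3p and miR-500-3p passed at 6 weeks and at no other duration, but that alone does not show a difference between durations.

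The test of the 6-week effect against the mean effect of the other 3 durations called 0 of 272 miRNAs with limma, with 31 (11.4%) at an unadjusted p under 0.05. The lowest p was for miR-494-3p, with -0.59 ± 0.14 log2 (adjusted p 0.109). miR-185-5p (0.26 ± 0.09), miR-500-3p (0.35 ± 0.11), miR-674-5p (0.27 ± 0.08) and miR-133a-3p (1.22 ± 0.42) followed, each with an adjusted p of 0.234. On the signal that the scanner software sums per miRNA, the same test called 27 miRNAs, all higher; without controls 1 and 2 it called 24, and without smoke array 2 it called 1.

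Set against single durations, 4 miRNAs (1.47%) differed from 8 weeks and 0 from 4 or 12 weeks by limma, where 59 (21.7%) and 17 (6.25%) had an unadjusted p under 0.05. These pairwise contrasts were added after the data had been seen, and no alternative settings are given for them. Before scaling, the 75th percentile of signal at 8 weeks was 2337 to 3472 on controls and 1229 to 1681 on smoke arrays. The 8-week smoke arrays 1 to 4 scored 3.02, -3.84, -4.26 and 1.82 on the first component. Whether the differences from 8 weeks depend on these features was not tested. miR-146b-5p rose by 1.41 at 6 weeks and 0.85 ± 0.08 log2 at 8 weeks, a difference of 0.55 ± 0.11 log2 (adjusted p 0.0082). miR-31-5p had -0.01 ± 0.09 log2 at 8 weeks, 0.55 ± 0.13 log2 below its 6-week effect (adjusted p 0.0315), and 0.59 and 0.52 at 4 and 12 weeks. miR-674-5p had -0.07 ± 0.07 log2 at 8 weeks (difference 0.41 ± 0.10, adjusted p 0.0366). miR-1895 rose at 8 weeks (0.48 ± 0.11 log2, adjusted p 0.005) and had -0.14 ± 0.11 at 6 weeks (difference -0.62 ± 0.16, adjusted p 0.0366). miR-449a-5p had the values -0.09, 0.86, 0.39 and 1.52 log2 at 4, 6, 8 and 12 weeks, and its 6-week effect did not differ from that at 4 weeks by the test (0.95 ± 0.26, adjusted p 0.0899).

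**Figure D5:**
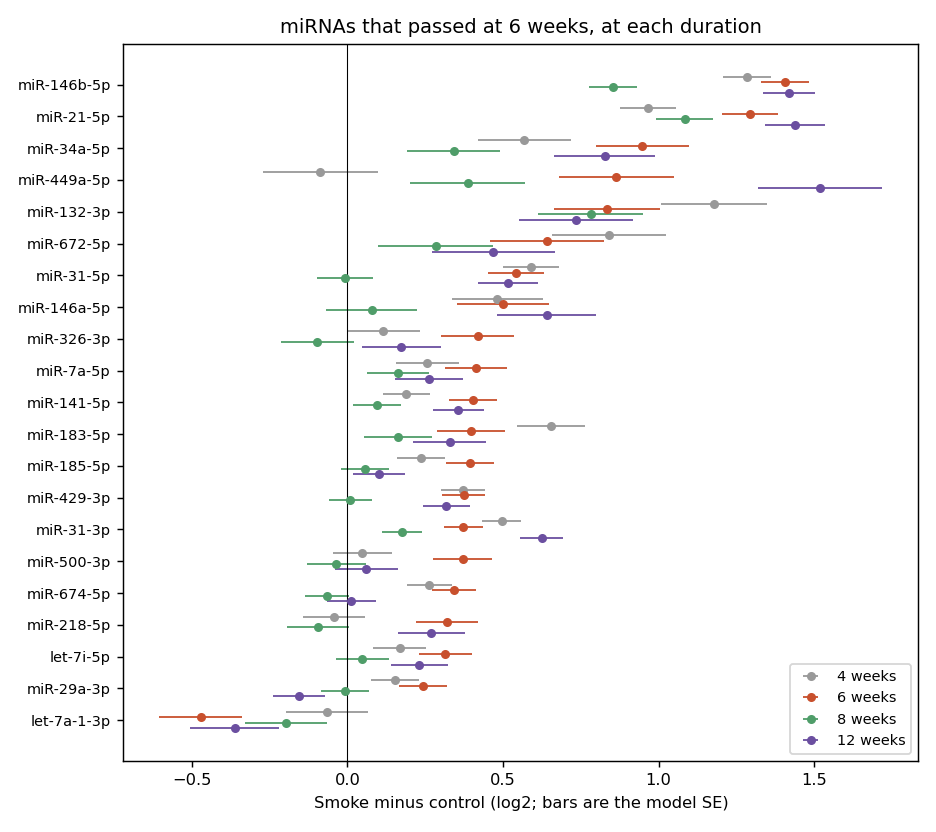
Smoke minus control difference (log2) with its model SE at 4, 6, 8 and 12 weeks for the miRNAs that passed at 6 weeks, without miR-135b-5p (3.95, 4.41, 4.10 and 4.98). The 8-week values of miR-146b-5p (0.85), miR-31-5p (-0.01) and miR-674-5p (-0.07) lie below their 6-week values.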

How the data were processed

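Per the file headers, each spot's intensity was background-subtracted by Feature Extraction 10.7.3.1, with no scaling between arrays. A table deposited by the authors gives log2 values of the 650 entries; the sources used here do not give its normalization. The medians of its arrays run from 2.71 to 2.85 and it correlates with the scaled scanner values at 0.981 to 0.985 per array, from which its scale was taken; its centring stays unknown. It served as an alternative.

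Control and outlier spots were left out, the spots of a probe were averaged, and a probe was detected when 50% of its spots were above background. Signals were scaled to the array's 75th percentile (385 probes, those detected on all 31 arrays), set to a floor of -6.74 (log2) and log2-transformed, which gives the log2 scaled signal. The brightest of a miRNA's probes was used. miRNAs detected on 75% of arrays in any group were tested with limma 3.58.1 (R 4.3.3) with a mean for each of 8 groups, 23 residual degrees of freedom and Benjamini-Hochberg adjustment over 272 miRNAs. The scripts were tested on simulated data. Alternatives were other scalings, probe summaries, floors, filters, background correction and the deposited table, blocks for replicate number or slide, fewer arrays in the fit, and leaving out each 6-week array.

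Named are the miRNAs that passed with the 15 largest rises and up to 10 largest falls, list members that passed or up to 4 bright members of lists with none, miR-21-5p, the other arm of a named miRNA and the 10 lowest p of the comparison between durations; miR-218-5p, miR-1895, miR-142-3p, miR-142-5p, miR-155-5p, miR-205-5p, miR-192-5p, miR-764-5p, miR-182-5p, miR-212-3p and miR-223-3p, and seed or hairpin neighbours, were named after their values were seen. The members and the 21 lists were chosen with earlier results of these data known. The scanner output used here holds no mean spot signal, so the normexp alternative (offset 50) took the median spot signal. The number of arrays limits the precision.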

Additional observations from a re-analysis of the deposited data

Results flagged for a closer look

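In 15 of 160 groups of 4 arrays, over the named miRNAs, 1 array lay far from the others. Its gap divided by the range of the group passed Dixon's 95% critical value. Chance would give about 5% of independent groups. The groups here share the same arrays, and some miRNAs were named after their values were seen, so the count cannot be set against that rate. Smoke array 2 was the distant array in 9 of the 15 groups. It was higher than the other smoke arrays in miR-449a-5p (-1.94, others -2.47 to -2.39), miR-126-5p (1.02, others 0.72 to 0.77), miR-144-3p (-0.63), miR-29a-3p (3.66, others 3.33 to 3.38), miR-16-5p (3.05, others 2.61 to 2.66), miR-218-5p (-2.03, others -2.42 to -2.36) and miR-182-5p (-5.34, others -5.94 to -5.91). It was lower in let-7a-1-3p (-5.11) and in muscle miR-133b-3p (-1.94, others -1.49 to -1.43). Smoke array 3 was lower in miR-199a-3p (1.84, others 1.92) and miR-223-3p (1.21, others 1.28 to 1.29). Control 2 was higher in miR-19b-3p (0.64, others 0.54 to 0.55) and miR-494-3p (-4.22, others -4.66 to -4.61), control 1 was lower in miR-182-5p (-6.30), and control 3 was above the floor in miR-205-5p (-6.73). The other controls of miR-205-5p lie at the floor, so this flag is set by the floor.

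For 4 miRNAs the smoke effect differed between 6 and 8 weeks by limma: miR-146b-5p by 0.55 log2 (adjusted p 0.0082), miR-31-5p by 0.55 (0.0315), miR-674-5p by 0.41 (0.0366) and miR-1895 by -0.62 (0.0366). Every smoke array of 8 weeks was dimmer before scaling than every control of 8 weeks. No alternative settings are given for these contrasts.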

How the results depend on the processing

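No result reversed under any alternative. The count of 22 calls at 6 weeks moved to 2 without scaling, 13 with the floor 4 times higher, 4 with normexp correction, 34 without 4-week smoke arrays 2 and 3, 52 without controls 1 and 2, 44 with each array's 75th percentile as a covariate, 10 with close arrays averaged and 12 in the fit of 8 arrays with the replicate block; leaving out 1 array gave 14 to 25. The share of higher calls, 95.5%, was 75% when scaled over all probes (16 calls), 60.7% after quantile scaling (28), 83.3% in the deposited table (18), 82.4% without 4-week smoke arrays 2 and 3, 70.5% with the covariate and 55.8% without controls 1 and 2, and leaving out controls 3 and 4 moved the median of all miRNAs to 0.13 log2. Same-numbered arrays of 6 weeks lie on the same slide and are paired in that sense. Their deviations had correlations of -0.0034, 0.32, 0.16 and 0.096, which did not all reach a limit of 0.1, and the main fit used no pairing. The replicate block over 31 arrays gave 22 calls and kept all 22. The slide as a fixed block gave 20 and ended the calls of miR-146a-5p and miR-218-5p. In the fit of 8 arrays the replicate block pairs the arrays by slide, and this fit kept 8 of the 22. The comparison with the other durations moved from 0 calls to 27 with the scanner's summed signal, 24 without controls 1 and 2 and 1 with the covariate, and leaving out 1 array gave 0 to 1. Leaving out control pairs, averaging close arrays, the covariate, the block in the fit of 8 arrays, normexp on median signals and the 4-week values without smoke arrays 2 and 3 were chosen after seeing the data. The cause of these changes was not tested. Signals near the floor, as for miR-132-3p, miR-141-5p, miR-31-3p and miR-674-5p, limit what their differences show.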
